A study of Homo sapiens with 24 samples.

Results

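LRP4, LRP5 and LRP6 are cell-surface proteins of the lipoprotein receptor family. LRP5 and LRP6 sit beside Frizzled proteins and act as co-receptors for Wnt ligands, and LRP4 is best known as the receptor for agrin at the nerve-muscle synapse and as a partner of sclerostin in bone. When a Wnt ligand brings Frizzled and LRP6 together, the intracellular tail of LRP6 is phosphorylated at repeated proline-rich motifs, axin is drawn to the membrane and beta-catenin escapes degradation. Clustering the tail alone can start the same chain of events, and the optogenetic receptor of this study uses that property: the light sensor Cry2 comes from plants, forms clusters when it absorbs blue light, and is joined to the LRP6 tail. The transcripts described here are those of the 3 LRP genes and of 4 construct features counted by the authors, which together make 7 of the 28301 features in the gene table. They were chosen by name. The construct features are Cry2_LRP6c_2A_mCherry (the photoreceptor-tail fusion, followed by a self-cleaving 2A peptide and the red fluorescent protein mCherry), PuroR (puromycin resistance), eGFP (a green fluorescent protein) and NeoR (neomycin resistance).

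The libraries hold mRNA of H9, a long-established line of human embryonic stem cells, kept in E8 medium. They form 8 groups of 3. Monocultures were Cry2 cells, which carry the fusion and PuroR, or wt cells, which carry eGFP and NeoR but no light-responsive receptor; each was kept in the dark or under light of 0.8 µW/mm² for 48 h. Co-cultures that mixed both kinds in equal parts were kept under the same conditions and sorted by fluorescence into engineered cells (mCh) and wild-type cells (GFP), again from dark or light. A replicate pooled wells of a culture, so p-values measure the spread between cultures of these lines. The labels do not say whether a line is a single clone. Tests between mCh and GFP cells treated libraries sorted from mixed co-cultures as independent, since the labels do not pair them.

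Reads assigned to genes numbered 28237578 to 34291124 in dark monoculture libraries, 45763662 to 54707558 in light monoculture libraries and 31807414 to 56639833 in co-culture libraries, so depth and light cannot be told apart in monoculture by design. For monocultures the titles and the genotype field contradict each other; groups follow the titles, and the construct transcripts below go with them in 12 of 12 libraries. The pluripotency markers that define the labelled stem cells were present, with a summed level (8 genes) of 283171 to 342426 normalised counts per library in every group but the illuminated engineered ones, where it was 80522 to 100704. A normalised count here is a read count divided by the library's size factor. In wt light replicate 2 all 3 LRP genes and the fusion row were lowest of their group, in wt dark replicate 1 the GC content was 33.73%, and in Cry2 dark replicate 3 the RNA integrity number was 7.6.

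The tail of LRP6 is the piece of sequence that the gene and the fusion share, and its signalling motif is shown first because every LRP6 value below depends on that overlap. The motif was searched in coding sequences of GENCODE 29 (GRCh38) as 3 prolines, a serine or threonine, a proline, any residue and a serine or threonine. It occurred 3 times in LRP5 (codons 1500, 1575 and 1606 of 1615), 3 times in LRP6 (codons 1487, 1569 and 1604 of 1613) and 0 times in the 1905 codons of LRP4; looser copies were not searched. In the lines below, capitals mark the 21 bases of each motif and lower case the flanking coding bases.
LRP5 motif 1: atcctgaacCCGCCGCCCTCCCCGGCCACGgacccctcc
LRP6 motif 1: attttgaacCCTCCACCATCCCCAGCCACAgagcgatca
LRP5 motif 2: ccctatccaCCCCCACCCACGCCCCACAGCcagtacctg
LRP6 motif 2: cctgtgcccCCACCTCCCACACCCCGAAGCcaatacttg
LRP5 motif 3: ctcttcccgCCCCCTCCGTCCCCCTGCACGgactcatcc
LRP6 motif 3: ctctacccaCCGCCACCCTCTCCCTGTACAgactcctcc
LRP5 and LRP6 matched at 16, 16 and 15 of the 21 motif bases, so the genes encode the searched pattern with different letters. In motif 2 the free residue differs as well, a histidine in LRP5 and an arginine in LRP6. In LRP6 the first motif lies at chr12:12124633-12124653 (minus strand) in exon 22, the second at chr12:12121243-12121263 and the last at chr12:12121138-12121158, both in exon 23. In LRP5 they lie at chr11:68446445-68446465 in exon 22 and at chr11:68448945-68448965 and chr11:68449038-68449058 in exon 23 (plus strand).

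LRP4 had the largest light differences of the 3 LRP genes in Cry2, mCh and GFP cells. It rose in engineered cells in both cultures and also in the wild-type cells that shared a dish with them, and did not pass the test in wild-type cells grown alone. The gene (ENSG00000134569) spans chr11:46856868-46918642 on the minus strand, with 38 exons in its principal transcript.

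In the dark, LRP4 stood at 2007, 1919 and 1941 normalised counts in Cry2 cells and at 5298, 5424 and 4814 in the light. The lowest light library was far above the highest dark one. The mean was 2.65-fold higher in light (5179 ± 322 against 1955 ± 45.9, SD, n = 3), a log2 difference of 1.40 ± 0.09 (SE; limma, Benjamini-Hochberg adjusted p = 1.6e-09). Among all features tested in this contrast 28.1% were called higher and 30.3% lower, so a call by itself was common. In bulk libraries such as these, more cells with the transcript and more transcript per cell cannot be told apart.

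In mCh cells sorted from co-culture, LRP4 was 1855, 2093 and 1755 in the dark and 5082, 4828 and 4691 in the light. The groups did not overlap, and the mean was 2.56-fold higher in light (log2 difference 1.36 ± 0.08, SE; limma adjusted p = 2.73e-09), where 27.2% of all features were called higher and 28.6% lower. The light effect of engineered cells did not differ detectably between cultures (co-culture minus monoculture -0.04 on the log2 scale, 95% interval -0.30 to 0.21, limma adjusted p = 0.984); 0.064% of features were called there.

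In GFP cells, which hold no light-responsive receptor, LRP4 was 2093, 2092 and 1945 in the dark and 4162, 4613 and 3984 in the light. Every light library lay above every dark one. The mean was 2.08-fold higher (4253 ± 324 against 2043 ± 85.3, SD, n = 3; log2 difference 1.06 ± 0.08, SE; limma adjusted p = 3.48e-06). This call stood against a background of 2.39% of features called higher and 2.21% lower. The rise in GFP cells, 2210 normalised counts, was 74.5% of the rise in mCh cells and 45.4% of the whole mCh light level. PuroR, a transcript of the engineered cells, was in the same GFP light libraries at 0 to 0.0943% of its mCh light mean, and the summed primitive streak and mesoderm markers (5 genes) had a median of 555, which was 0.536% of the mCh light median of 103526. That sum moved with LRP4 in GFP cells: it was 200.3 to 242 normalised counts in the dark and 519 to 597 in the light, without overlap. Of its 5 genes 2 rose in GFP light, EOMES from 5.95 ± 2.05 to 244 ± 32.8 and MIXL1 from 48.2 ± 2.34 to 157 ± 14.0 (SD, n = 3; limma adjusted p = 9e-06 and 1.7e-06). Of 8 Wnt target genes 4 rose in GFP light, SP5, NOTUM, LEF1 and TCF7, by 5.08, 1.86, 0.79 and 0.64 on the log2 scale, and 0 fell. The part of engineered cells in the sort, or of these genes, in the LRP4 difference was not tested.

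In wt monoculture LRP4 was 1798, 1962 and 1772 in the dark and 2289, 1869 and 2416 in the light. The groups overlapped, through wt light replicate 2, and the log2 difference of 0.24 did not pass (95% interval 0.06 to 0.43; limma adjusted p = 0.283). Without that library it was 0.35 and passed, at an adjusted p of 0.0386. In this contrast 0.0309% of features were called higher and 0.0411% lower. Of the 3 LRP genes limma called 0, and edgeR and DESeq2 also called 0. An unadjusted limma p under 0.05 was found for 2 of the 3, beside 2560 of all 19448 features.

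The differences between these light effects were tested directly; they reuse the libraries of the contrasts above. The LRP4 light effect in monoculture was larger in Cry2 than in wt cells by 1.16 ± 0.12 on the log2 scale (SE; limma adjusted p = 1.49e-06), a contrast in which 47.8% of features were called. In wild-type cells it was larger in co-culture than in monoculture by 0.81 ± 0.12 (SE; limma adjusted p = 0.000256), where 2.3% of features were called. Between mCh and GFP cells of the same co-cultures it differed by 0.30 (95% interval 0.05 to 0.56; limma adjusted p = 0.0565), which did not pass; 40.5% of features did. That contrast passed when mCh dark library b (0.37, adjusted p = 0.0262) or GFP light library b (0.36, adjusted p = 0.0348) was left out.

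By level, LRP4 fell into 2 bands. The 4 dark groups and wt light held 1755 to 2416 normalised counts, with ranges that overlapped between every pair of them. The light groups of GFP (3984 to 4613), mCh (4691 to 5082) and Cry2 cells (4814 to 5424) lay above, and the last pair overlapped. The difference between mCh and GFP cells in the light, 0.20 on the log2 scale, did not pass (limma adjusted p = 0.063), although the groups did not overlap and 54.3% of features were called; without GFP light library b it was 0.26 and passed (adjusted p = 0.0349). LRP4-AS1, an antisense gene that overlaps LRP4, held 13.5 to 67.4 normalised counts over the 24 libraries, so its reads are few beside those of LRP4 whichever strand was counted.

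**Figure D1:**
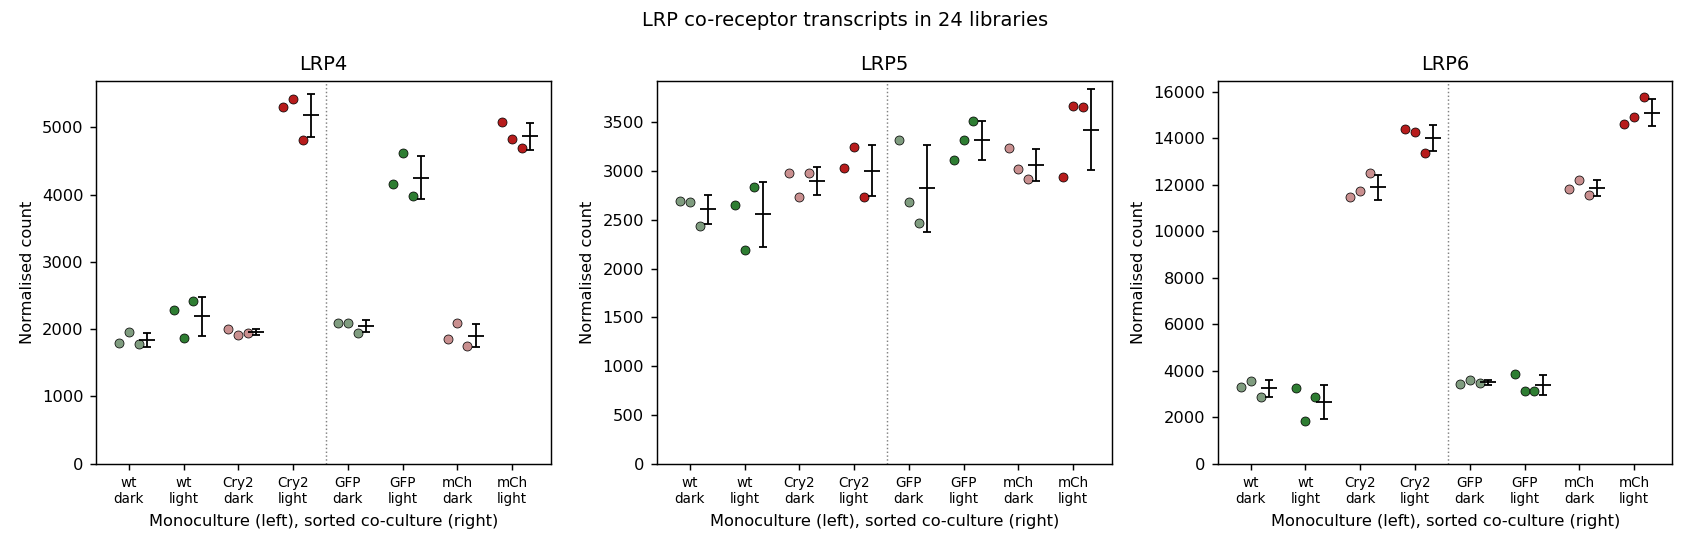
Normalised counts of LRP4, LRP5 and LRP6 (vertical axes from 0) in the 8 groups, with 1 point per library and the mean ± SD (n = 3) to the right of each group. LRP4 is near 2000 in the dark and in wt light and between 3984 and 5424 in the light groups of Cry2, GFP and mCh cells; LRP6 is at 11474 or more in each library of engineered cells.

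LRP5, the closest relative of LRP6, stayed within a narrow range. The gene (ENSG00000162337) spans chr11:68312609-68449275 on the plus strand, with 23 exons. It did not pass in any of the 4 light contrasts, and its values lay between 2186 and 3670 normalised counts across all 24 libraries.

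LRP5 was 2983, 2737 and 2982 in Cry2 dark and 3029, 3251 and 2735 in Cry2 light, with a log2 difference of 0.05 (95% interval -0.15 to 0.25; limma adjusted p = 0.682). In wt cells it was 2698, 2685 and 2437 in the dark and 2654, 2186 and 2832 in the light (log2 difference -0.03, 95% interval -0.23 to 0.16; limma adjusted p = 0.90). In both monocultures the ranges of dark and light overlapped.

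In co-culture LRP5 was 3240, 3024 and 2917 in mCh dark and 2944, 3670 and 3660 in mCh light. The difference was 0.16 (95% interval -0.09 to 0.40; limma adjusted p = 0.26), and it passed when mCh light library a, the low one, was left out (0.26, adjusted p = 0.0334). In GFP cells it was 3316, 2686 and 2463 in the dark and 3113, 3316 and 3518 in the light (0.24, 95% interval 0.001 to 0.48; limma adjusted p = 0.30). Dark and light ranges overlapped in both, and no interval reached beyond 0.48, against LRP4 changes above 1.

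LRP5 passed in comparisons of genotype or culture only by a narrow margin. In the light it was higher in Cry2 than in wt monocultures by 0.24 on the log2 scale (limma adjusted p = 0.0372), a contrast in which 60.9% of features were called, and the ranges of the groups overlapped. In wild-type cells under light it was higher in co-culture than in monoculture by 0.38 (3316 ± 203 against 2558 ± 334, SD, n = 3; limma adjusted p = 0.0195), where 13.9% of features were called. Without wt light replicate 2 these differences were 0.13 (adjusted p = 0.145) and 0.27 (adjusted p = 0.158). The former call was also lost without Cry2 light replicate 1 (adjusted p = 0.078) or 2 (0.144), and the latter without GFP light library b (0.0549) or c (0.0787). LRP5L, a partial copy of LRP5 on chromosome 22, held 124 to 197 normalised counts.

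LRP6 was higher in engineered than in wild-type cells, in a row that the construct can feed. The gene (ENSG00000070018) spans chr12:12116025-12267012 on the minus strand, with 23 exons, and reads from the fusion's tail can be counted to it. Its row stood at 11474, 11715 and 12501 normalised counts in Cry2 dark and at 3315, 3546 and 2853 in wt dark. In mCh dark it was 11807, 12221 and 11556, and in GFP dark 3422, 3614 and 3459. No library of engineered cells overlapped a wild-type one.

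Over dark and light together, the LRP6 row of Cry2 cells was 4.4 times that of wt cells (12957 ± 1261 against 2941 ± 602, SD, n = 6 each; exact two-sided permutation p = 0.00216, the smallest that 6 against 6 allows) and 3.93-fold higher in mCh than in GFP cells (13482 ± 1827 against 3434 ± 289, SD, n = 6 each; exact permutation p = 0.00216). Within the dark the fold was 3.67 in monoculture and 3.39 in co-culture (limma adjusted p = 2.66e-06 and 1.88e-08), contrasts in which 3.62% and 0.833% of features were called. The fusion defines the engineered line and its reads can be counted to this row, so these p-values do not test the cell's own LRP6. The permutation also pooled dark and light libraries as if they were alike. Of the 3 LRP genes, LRP6 alone passed in the dark; LRP4 differed by 0.09 (adjusted p = 0.682) and -0.11 (adjusted p = 1), and LRP5 by 0.15 (adjusted p = 0.432) and 0.13 (adjusted p = 1), in monoculture and co-culture.

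Wild-type cells show the LRP6 row in the absence of the construct. Their libraries also held reads on the fusion row, at 9.57% to 13.2% of the LRP6 row, so the row may fall short of the gene's full level. In wt light the LRP6 row was 3240, 1846 and 2849, and in GFP light 3868, 3137 and 3104. Light and dark ranges overlapped in both cultures: the log2 difference was -0.33 in wt cells (95% interval -0.64 to -0.01; limma adjusted p = 0.367; -0.09 without wt light replicate 2 and -0.49 without replicate 1) and -0.06 in GFP cells (95% interval -0.24 to 0.12; limma adjusted p = 0.799). Under light, LRP6 was higher in co-cultured than in monocultured wild-type cells by 0.38 (limma adjusted p = 0.0474), a call lost without wt light replicate 2 (0.14, adjusted p = 0.436), without GFP light library a (0.28, adjusted p = 0.214) and under most other settings.

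In engineered cells the LRP6 row was 14406, 14271 and 13373 in Cry2 light and 14625, 14916 and 15768 in mCh light. Each of these lay above every dark library of the same cells. The log2 difference was 0.24 in Cry2 cells (95% interval -0.08 to 0.55; limma adjusted p = 0.185), which did not pass with all libraries and did without wt light replicate 2 (0.24, adjusted p = 0.00616), a library that enters only through the shared estimate of spread. In mCh cells it was 0.35 ± 0.08 (SE; 1.27-fold; limma adjusted p = 0.0025), where 27.2% of all features were called higher. The LRP6 light effect was larger in engineered than in wild-type cells by 0.56 in monoculture (limma adjusted p = 0.0372) and by 0.41 in co-culture (limma adjusted p = 0.0124); the monoculture value was 0.32 without wt light replicate 2, and its call was lost without Cry2 dark replicate 1 or 2, Cry2 light replicate 2, or wt dark replicate 1 or 2 (0.49 to 0.55).

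**Figure D2:**
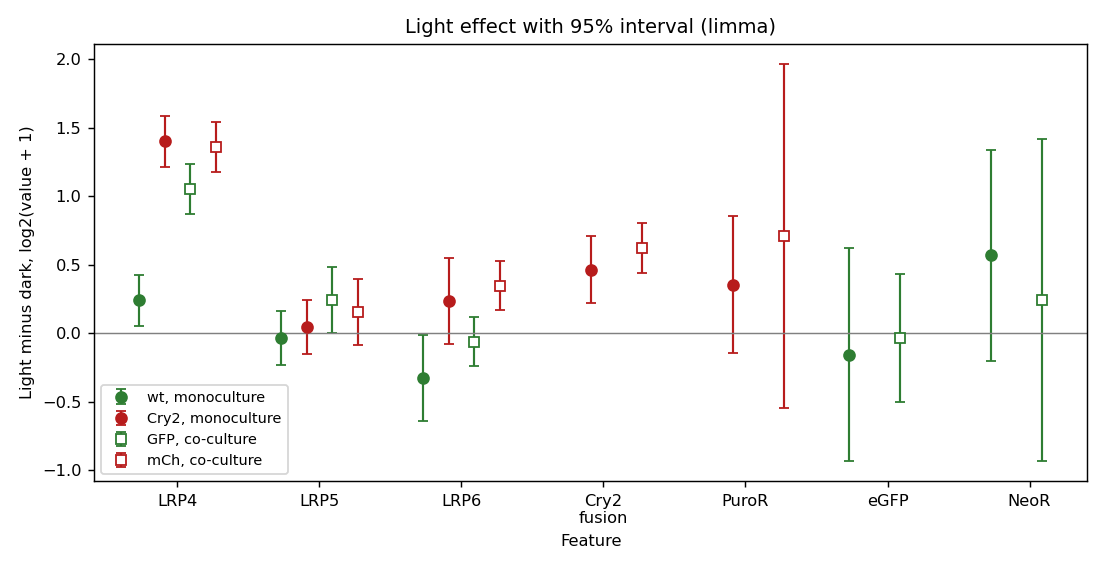
Light minus dark on the log2(value + 1) scale (vertical axis) for the LRP genes and construct features, with 95% intervals from limma; circles are monocultures, open squares sorted co-cultures, red engineered and green wild-type cells. LRP4 lies at 1.40, 1.36 and 1.06 in Cry2, mCh and GFP cells and at 0.24 in wt cells, while the intervals of LRP5 stay under 0.5.

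The fusion transcript was abundant, and it rose with light in both cultures. It stood at 35723, 34166 and 37398 normalised counts in Cry2 dark and at 50531, 50614 and 47039 in Cry2 light. In mCh cells it was 37421, 37801 and 35820 in the dark and 52164, 57703 and 61394 in the light. Dark and light groups did not overlap in either culture.

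The fusion mean was 1.38-fold higher in Cry2 light than dark (log2 difference 0.47 ± 0.11, SE; limma adjusted p = 0.00247) and 1.54-fold higher in mCh light than dark (0.62 ± 0.09, SE; limma adjusted p = 1.86e-05). Over all features 28.1% and 27.2% were called higher in these contrasts, so a called rise was common. As a share of assigned reads the fusion was 0.0829% to 0.0920% in the 6 dark libraries of engineered cells and 0.109% to 0.128% in the 6 light ones, so the groups stayed apart without the authors' size factors. The light effect did not differ detectably between the cultures (0.16, 95% interval -0.15 to 0.46; limma adjusted p = 0.964).

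Wild-type libraries also held reads on the fusion row. They numbered 427, 393 and 325 normalised counts in wt dark, 310, 219 and 286 in wt light, 349, 398 and 364 in GFP dark and 422, 358 and 408 in GFP light. In each of these 12 libraries the fusion row amounted to between 9.57% and 13.2% of the LRP6 row, in monocultures that never met an engineered cell as in sorted ones. PuroR, which engineered cells carry beside the fusion, had 0 reads in each of the 6 wt monoculture libraries, where 3 reads would be worth 2.30 to 4.13 normalised counts.

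In engineered cells both rows were high. The LRP6 excess over wild-type cells was 24.5% of the fusion excess in dark monoculture, 23.1% in light monoculture, 22.8% in dark co-culture and 20.7% in light co-culture. The LRP6 row as a share of the fusion row was 31.6% to 34.3% in the 6 dark libraries of engineered cells and 25.7% to 28.5% in the 6 light ones, which did not overlap; these shares were not tested. When the LRP6 and fusion rows were added, the light effect in Cry2 cells was 0.41 (limma adjusted p = 0.0217). How much of the LRP6 row in engineered cells is the cell's own gene cannot be told from these counts.

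**Figure D3:**
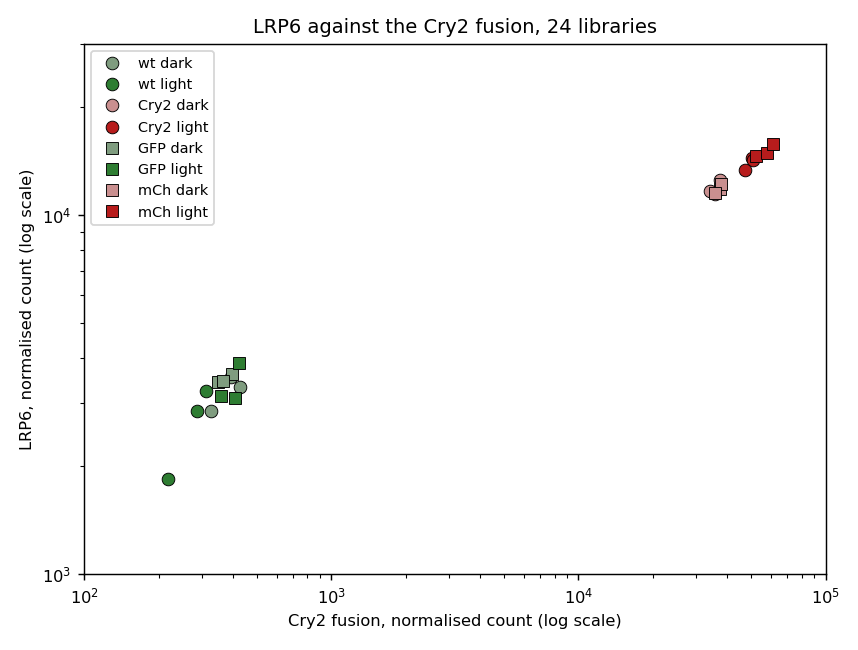
LRP6 against the fusion row in normalised counts, both axes on a log scale, with 1 point per library; circles are monocultures and squares sorted co-cultures. The 12 wild-type libraries sit at 219 to 427 on the fusion axis and the 12 engineered ones at 34166 to 61394, with light libraries of engineered cells above and to the right of the dark ones.

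The resistance and marker transcripts went with the lines that carry them. PuroR was 1811, 1458 and 1804 normalised counts in Cry2 dark and 1926, 2257 and 2295 in Cry2 light. It was 1989, 2027 and 1588 in mCh dark and 1978, 3392 and 4199 in mCh light, where the libraries spread most. Ranges were separate in monoculture and overlapped in co-culture.

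PuroR did not pass with limma, at a log2 difference of 0.36 in Cry2 cells (95% interval -0.14 to 0.85; adjusted p = 0.209) and 0.71 in mCh cells (95% interval -0.54 to 1.97; adjusted p = 0.327). The limma spread here includes wild-type groups with few or no PuroR reads. edgeR on the recovered reads called both (adjusted p = 0.00941 and 0.0066). DESeq2 called PuroR in Cry2 cells (adjusted p = 0.00379) and not in mCh cells (adjusted p = 0.0800). PuroR amounted to 3.79% to 6.84% of the fusion row over the 12 engineered libraries.

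eGFP was 14493, 14151 and 14952 in wt dark and 12607, 13180 and 13318 in wt light. In GFP cells it was 14394, 13144 and 13082 in the dark and 11980, 13332 and 14466 in the light. The log2 differences, -0.16 in wt cells (95% interval -0.94 to 0.62; limma adjusted p = 0.88) and -0.03 in GFP cells (95% interval -0.50 to 0.43; limma adjusted p = 0.971), did not pass, though the wt groups did not overlap. For each feature limma estimates 1 spread over all 4 groups of a culture, here including engineered groups with few eGFP reads.

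NeoR, the weakest of the construct features, was 652, 269 and 626 in wt dark and 562, 862 and 741 in wt light. In GFP cells it was 672, 709 and 402 in the dark and 629, 709 and 713 in the light. Dark and light ranges overlapped in both, and neither difference passed (0.57 and 0.24; limma adjusted p = 0.508 and 0.892). The wt value was 0.15 without wt dark replicate 2, and the GFP value was -0.02 without GFP dark library c and 0.39 without library b. No light call was made for either wild-type marker in GFP cells, where LRP4 rose by 1.06. The 95% interval of NeoR there, -0.93 to 1.42, was wide enough to include that value. Its spread was shared with mCh groups, which held few NeoR reads.

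Sorted libraries held small amounts of the other line's markers. eGFP was 0, 0 and 1.49 in Cry2 dark and 0, 1.62 and 0 in Cry2 light, against 3.42, 5.58 and 5.54 in mCh dark and 29.8, 14.6 and 25.6 in mCh light. As a share of the mean of GFP cells under the same condition, eGFP in mCh libraries came to 0.0253% to 0.225%. PuroR in GFP cells was 1.77, 0 and 5.72 in the dark and 3.01, 1.88 and 0 in the light. The largest of these, in GFP dark library c, was 0.306% of the mCh dark mean. NeoR in mCh cells was 0, 5.58 and 1.58 in the dark and 0, 1.62 and 1.5 in the light. Since the markers define the lines and the sort, their levels between lines were not tested.

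**Figure D4:**
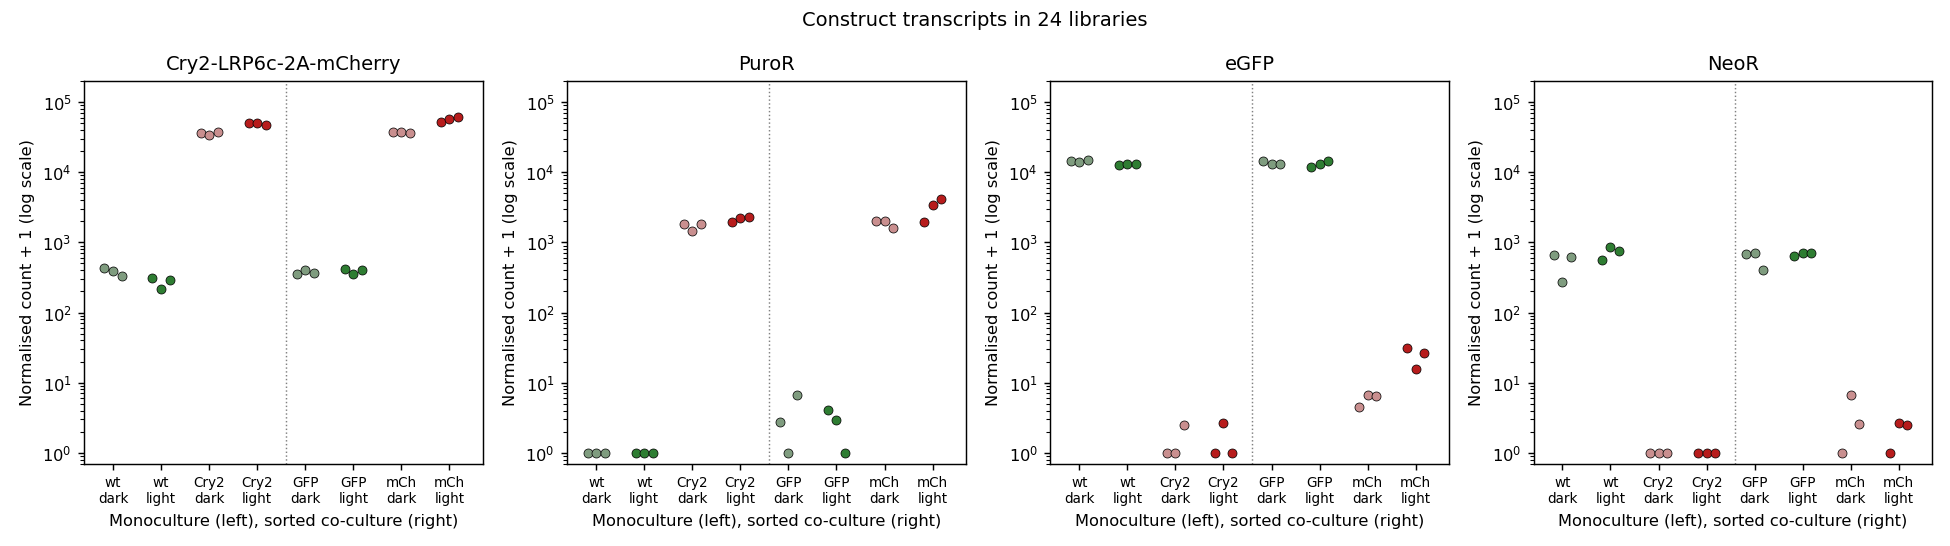
The 4 construct features in the 8 groups as normalised count + 1 on a log scale, with 1 point per library. PuroR and the fusion are high in Cry2 and mCh cells, eGFP and NeoR in wt and GFP cells, and the fusion row stays at 219 to 427 in wild-type cells, where PuroR is at 5.72 or less.

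Between cultures, members were called in illuminated wild-type cells only. In dark engineered cells 0.0344% of features were called between co-culture and monoculture, in dark wild-type cells 0.0295%, and in illuminated engineered cells 0.728%; none of the members passed in any of these 3 contrasts with limma. In illuminated wild-type cells LRP4 was higher in co-culture by 0.96 ± 0.09 (SE; limma adjusted p = 3.73e-08), beside the smaller LRP5 and LRP6 differences given above. eGFP and NeoR did not pass there (0.02 and -0.06; adjusted p = 0.983 and 0.964).

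Scaled per kilobase of exon, the order of the LRP genes depended on the condition. In wt dark the levels were 395 to 438 normalised counts per kilobase for LRP5, 276 to 343 for LRP6 and 206 to 228 for LRP4, with no overlap. In GFP light they were 505 to 571 for LRP5, 463 to 537 for LRP4 and 300.3 to 374 for LRP6, so that LRP4 reached the range of LRP5. In Cry2 light LRP4, at 560 to 631, lay above LRP5, at 444 to 527. The LRP6 row is left out of this order in engineered cells, since reads of the fusion, a transcript of another length, can be counted to it. Wild-type libraries held reads on the fusion row too, and these are not added to LRP6 here.

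Other genes were taken from lists drawn up around these receptors from background knowledge, 76 genes in 7 lists without the members themselves. The list names are broad, and not every gene fits the name of its list. Of 70 tested in monoculture, 30 rose and 24 fell in Cry2 cells under light, with a median log2 difference of 0.19 against -0.01 for all features. Over all features 28.1% were called higher and 30.3% lower there, 27.2% and 28.6% in mCh cells and 2.39% and 2.21% in GFP cells. The list counts below are to be read against these shares, and no list was tested against other genes. In mCh cells 30 of 71 rose and 23 fell (median 0.16). In GFP cells 7 rose and 2 fell (median 0.02). In wt cells limma called 0 of 70, edgeR 0 and DESeq2 3, where limma called 0.0309% of all features higher and 0.0411% lower. An unadjusted limma p under 0.05 was found for 10 of the 70, beside 2560 of all 19448 features. In GFP cells 3215 of all 19440 features had an unadjusted limma p under 0.05. The unadjusted counts for GFP cells below are to be read against that. The streak and mesoderm markers moved with the same groups, at 92857 to 108777 summed normalised counts in illuminated engineered libraries, 519 to 597 in GFP light and 162 to 242 in all others; their part in the list counts was not tested.

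Frizzled receptors, the Wnt-binding partners of LRP5 and LRP6, changed in both directions. In Cry2 cells under light 5 of 10 rose and 3 fell (median 0.38), the latter a share near the 30.3% of all features. FZD10 went from 34.6 ± 13.3 to 5845 ± 243 normalised counts (SD, n = 3; limma adjusted p = 3.2e-12), and FZD5 from 3839 ± 218 to 39.3 ± 19.4 (limma adjusted p = 1.4e-11). FZD1, FZD4 and FZD9 rose by 1.73, 1.01 and 0.77 on the log2 scale, and FZD6 and FZD3 fell (log2 differences of -0.72 and -0.22). In mCh cells the counts were again 5 and 3. In GFP cells 4 rose and 1 fell: FZD10 by 1.27, FZD1 by 0.73, FZD8 by 0.71 and FZD5 by 0.65, while FZD2 fell by 0.69 (limma adjusted p = 0.0019 to 0.039). The fitted FZD5 difference was 0.65 in GFP cells and -6.73 and -6.32 in Cry2 and mCh cells. Without GFP dark library b, the Frizzled calls in GFP cells were 1 higher and 0 lower; without GFP light library b they were 2 and 0.

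The list of antagonists that bind LRP5 or LRP6 included the largest rises of the 7 lists in engineered cells, those of DKK1 and DKK4. It also holds DKK3, not an established ligand of these receptors, and the KREMEN genes, whose products bind DKK proteins. Of 9 tested in monoculture 6 rose and 2 fell (median 0.72), and of 10 tested in mCh cells 6 rose and 2 fell (median 0.61). Over all features 28.1% were called higher and 30.3% lower in Cry2 cells, and 27.2% and 28.6% in mCh cells. DKK1, which binds LRP6 and blocks its use by Wnt, reached 46682 ± 1976 normalised counts in Cry2 light (SD, n = 3) from 4 reads over the 3 dark libraries. DKK4 reached 846 ± 87.3 from 0 reads, APCDD1 rose by 3.43 and KREMEN1, a receptor for DKK proteins, by 1.75 on the log2 scale. SOSTDC1 and KREMEN2 fell (log2 differences of -3.34 and -2.0). In GFP cells limma called 0 of the 10, with 1 at an unadjusted p under 0.05, and edgeR and DESeq2 called 0; DKK1 there was 12.02 ± 8.35 in the light.

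Genes listed under chaperone, trafficking and turnover of the receptors changed in both directions. The list is broad, and LYPD6, RECK and ADGRA2 in it are not established genes of receptor folding, trafficking or turnover. In Cry2 cells 4 of 10 rose and 3 fell (median 0.19), beside 28.1% and 30.3% of all features. LYPD6 rose by 0.81, RECK by 0.59, ZNRF3, a ligase that removes Frizzled and LRP6 from the membrane, by 0.25 and WDR48 by 0.19. ADGRA2 fell by 1.61, TMEM9 by 0.45 and USP46 by 0.22. In mCh cells 2 rose and 3 fell. In GFP cells limma called 0 of 10, with 2 at an unadjusted p under 0.05; edgeR called 0 and DESeq2 called 1.

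Kinases and cyclins that phosphorylate the tail changed in both directions. In Cry2 cells 3 of 13 rose and 6 fell (median -0.07), beside 28.1% and 30.3% of all features. CDK14, which with a cyclin Y partner primes the LRP6 tail at mitosis, fell by 1.30, and the cyclin Y-like gene CCNYL1 by 1.10. GRK6 fell by 0.56 and CSNK1E, a casein kinase, by 0.37. GRK5 rose by 0.84, CSNK1G2, a membrane-bound casein kinase, by 0.41 and CSNK1D by 0.25. The kinases GSK3A and GSK3B did not pass (0.06 and -0.07; limma adjusted p = 0.58 and 0.52). In mCh cells 4 rose and 6 fell. In GFP cells limma called 0 of 13, with 1 at an unadjusted p under 0.05, and edgeR and DESeq2 called 0.

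Genes of the signalosome and destruction-complex list changed in both directions. The list holds PIP4K2A, a different gene from the similarly named PI4K2A. PIP4K2A is not an established signalosome gene, but it enters the counts given here. In Cry2 cells 7 of 13 rose and 3 fell (median 0.40; 28.1% and 30.3% of all features), led by DACT1 (1412 ± 183 to 29790 ± 571 normalised counts, SD, n = 3) and AXIN2 (648 ± 78.2 to 6307 ± 185). DVL2 and AMER1 rose by 0.85 and 0.73, and PIP5K1B, APC2 and PIP4K2A fell (log2 differences of -3.66, -3.22 and -1.02). In mCh cells 8 rose and 3 fell. In GFP cells DACT1 rose by 0.79 (limma adjusted p = 0.0049) and PIP4K2A fell by 0.38 (limma adjusted p = 0.019), the only calls of the 13; AXIN2, another Wnt target, did not pass in GFP cells, at 558 ± 34.7 in the dark and 538 ± 65.2 in the light (limma adjusted p = 0.93). The PIP4K2A call was lost without any one of the GFP libraries other than light library a.

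In the rest of the lipoprotein receptor family 5 of 13 genes rose and 5 fell in Cry2 cells (median 0.08), and the same counts were found in mCh cells, near the shares of all features. LRP10 rose from 1449 ± 128 to 15400 ± 856 normalised counts (SD, n = 3), LRP12 rose by 0.95 on the log2 scale and LDLRAD3 by 0.57, while LRP2, VLDLR, SORL1 and LRP8 fell (log2 differences of -2.49, -2.14, -2.09 and -0.44). In GFP cells 2 of 13 rose, among them LDLRAD4 by 0.84 (limma adjusted p = 0.047), a call that was lost when GFP dark library a, b or c or GFP light library b was left out, and 0 genes of the family fell. AGRN, which encodes the LRP4 ligand agrin, fell from 12716 ± 1064 to 6202 ± 700 in Cry2 cells and did not pass in GFP cells (0.08; limma adjusted p = 0.80).

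**Figure D5:**
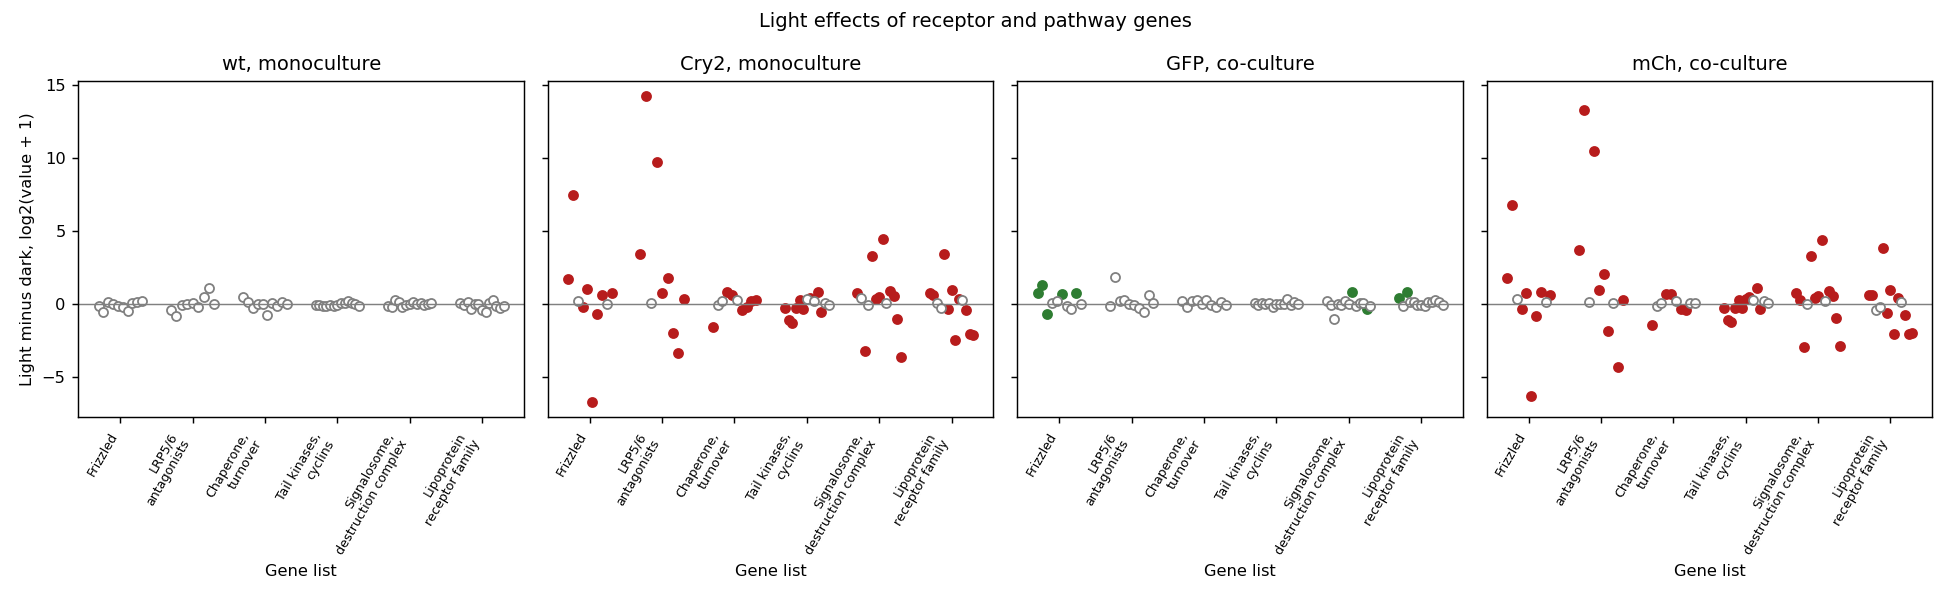
Light minus dark on the log2(value + 1) scale (vertical axis) for genes of 6 lists, in wt, Cry2, GFP and mCh cells, with 1 point per gene; filled points passed at a limma adjusted p under 0.05. Filled points are many in Cry2 and mCh cells, 7 higher and 2 lower in GFP cells, and 0 in wt cells.

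Among 20326 features, the patterns most like LRP4 over the 24 libraries were SALL3 (Pearson r = 0.976), DAB1 (0.97) and BAMBI (0.970). BAMBI, a pseudoreceptor that limits TGF-beta and BMP signals, was at 707 ± 112 in GFP dark and 2426 ± 206 in GFP light, and at 630 ± 32.5 and 671 ± 57.5 in wt dark and light (SD, n = 3). SALL3 was at 1262 ± 215 and 2815 ± 135 in GFP cells and at 1129 ± 86.0 and 1148 ± 90.7 in wt cells. LRP5 was most like PLEC (0.932), FASN (0.919) and POLR2A (0.912), and all 4 were lowest in wt light by group mean. These values carry no test, since libraries share groups and depth.

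LRP6 was most like ZNF583 (0.980), SMARCA2 (0.980) and IRAK4 (0.977), after the fusion itself (0.990). The fusion was most like IRAK4 (0.994), ZNF583 (0.992) and ZNF736 (0.989). IRAK4 was at 181 ± 6.6 normalised counts in Cry2 dark and 180 ± 27.4 in Cry2 light, and at 0 to 1.24 in wt dark and 0 in the other wild-type groups. ZNF583 and ZNF736 were at 0 in all 12 wild-type libraries. SMARCA2 was detected in both lines, at 740 ± 35.8 in Cry2 dark and 293 ± 25.9 in wt dark. These genes separate the 2 lines as the construct does, so their likeness to the fusion says only that the same libraries are high.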

How the data were processed

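The data were 24 RNA sequencing libraries, and those of mCh and GFP cells were sorted from mixed co-cultures. Per the submitters' processing notes, the tools were FastQC and cutadapt, the aligners Bowtie2 and STAR, then HTSeq and DESeq, with GRCh38; versions and the strand setting of the counting are not given in the sources used here. The header of the authors' sample table instead names hg19 with 4 extra genes; the conflict was not resolved, and coordinates are from GENCODE 29 (GRCh38) by Ensembl identifier. The authors' deposited table gives an expression signal per gene. It proved to be read counts divided by a size factor per library: 100.0% of the deposited values came out as whole counts within 0.01, with 28237578 to 56639833 reads per library. The floors of 3 reads cover counting error only, while the 95% intervals are limma's and rest on the spread between libraries. For monocultures, the RNA integrity score, the GC percent and the sequenced read count were taken from the authors' deposited sample table.

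The main test, chosen for a normalised unit, used log2(value + 1) in the trend method of limma 3.58.1 (R 4.3.3), so differences of weak genes are understated. Features at 10 or more in at least 3 libraries of a fit were kept: 19448 in the monoculture fit, 19440 in the co-culture fit and 20326 in the fit of all 24 libraries, which was used between cultures. P-values were Benjamini-Hochberg adjusted over all features and called under 0.05. Folds are ratios of group means. For LRP6 an exact permutation test, two-sided, was added. Monoculture columns were matched to samples by the column name in the sample description, co-culture columns only to groups, whose libraries carry the letters a, b and c here. The limma fit was tested on simulated monoculture counts, for the contrast of Cry2 light against dark only. The other steps were not tested on simulated data.

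Alternatives were pseudocounts of 0.5 and 5, no filter, scaling to total assigned reads, TMM scaling, edgeR 4.0.16 and DESeq2 1.42.0 on the recovered counts, 1 fit of all libraries, a replicate block, leaving out libraries, and adding the LRP6 and fusion rows. Per list the text names up to 4 called genes in each direction, and for likeness the 3 highest Pearson correlations; DKK1 in GFP cells, GSK3A, GSK3B, AXIN2 and AGRN in GFP cells, and the values of BAMBI and SALL3 were chosen after their values were seen. The members and lists were chosen with earlier results of these data known. Sequences of the constructs and promoters were not used here, and 1 gene of the lists is not reported here.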

Additional observations from a re-analysis of the deposited data

Results flagged for a closer look

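Results are given here where the effect of light differed between groups by the test of the difference itself. The LRP4 light effect in monoculture differed between Cry2 and wt cells by 1.16 on the log2 scale (limma adjusted p = 1.49e-06), with 3 of 3 Cry2 light libraries above all dark ones. In that contrast 47.8% of all features were called. In wild-type cells the LRP4 light effect differed between co-culture and monoculture by 0.814 (limma adjusted p = 0.000256), with 3 of 3 GFP light libraries above all dark ones and wt groups that overlapped. There 2.3% of all features were called. The LRP6 light effect differed by 0.562 between Cry2 and wt cells (limma adjusted p = 0.0372) and by 0.409 between mCh and GFP cells (limma adjusted p = 0.0124). In these contrasts 47.8% and 40.5% of all features were called. The LRP6 calls passed in 16 of 23 and 19 of 22 alternatives, and the monoculture value was 0.323 without wt light replicate 2. Reads of the fusion can be counted to the LRP6 row, and the fusion's own level in engineered cells was 1.38-fold and 1.54-fold higher in light in the 2 cultures; the part of the fusion in the LRP6 difference was not tested.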

How the results depend on the processing

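LRP4 kept its direction and its call in all 22 alternatives for Cry2 light against dark (1.36 to 1.45), all 21 for mCh (1.24 to 1.43), all 21 for GFP (1.00 to 1.10) and all 33 for the wild-type difference between cultures (0.70 to 0.89), and 0 called values reversed. Calls near the threshold moved, and the cause was not tested. Scaled to total assigned reads, LRP5 between Cry2 and wt in light was 0.228, the LRP6 monoculture difference of light effects 0.527 and the co-culture one 0.316, and LRP6 in illuminated wild-type cells between cultures 0.405; none then passed, so 1 and 0 LRP genes were called in the 2 differences of light effects. In 1 fit of all libraries LRP5 (0.237) and the LRP6 co-culture difference (0.409, 0 genes called) did not pass. Without the libraries of lowest GC and RNA integrity, LRP5 (0.237), the LRP6 monoculture difference (0.579, 1 gene called) and LRP6 between cultures (0.381) did not pass. Without the shallow light library c of both sorts, the LRP6 co-culture difference (0.323, 0 genes called) and, in illuminated wild-type cells, LRP5 (0.337) and LRP6 (0.437, leaving 1 gene called) did not pass. LRP6 between cultures also failed without a filter (0.381), with TMM (0.362) and with edgeR (0.339). With the LRP6 and fusion rows added, the Cry2 light effect of 0.412 passed.

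Leaving out 1 library at a time gave these ranges: LRP6 Cry2 light 0.211 to 0.273; LRP4 wt light 0.167 to 0.352 (0 to 1 genes called); LRP5 Cry2 against wt in light 0.128 to 0.315; LRP6 monoculture difference 0.323 to 0.728 (1 to 2 genes); LRP5 mCh light 0.102 to 0.261; LRP4 mCh against GFP in light 0.151 to 0.256 (1 to 2 genes); LRP4 co-culture difference 0.248 to 0.375 (1 to 2 genes); in illuminated wild-type cells between cultures LRP5 0.272 to 0.459 and LRP6 0.142 to 0.548 (1 to 3 genes). Over all features, the count called moved by over 1.5 times for wt light (14; 2 to 256), Cry2 against wt in dark (704; 273 to 1732), GFP light (894; 484 to 1562), mCh against GFP in dark (162; 97 to 296) and, between cultures, engineered dark (7; 3 to 22), engineered light (148; 73 to 3458), wild-type dark (6; 1 to 41), wild-type light (2821; 1231 to 1815) and the engineered (13; 0 to 80) and wild-type (468; 260 to 728) light effects.

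Replicate numbers did not pair the monoculture libraries (correlations of -0.061 to 0.059, 0 of 18 pairs over 0.1). With a replicate block, 11297 features were called for Cry2 light and 10 for wt light, and the LRP4 difference in Cry2 cells stayed 1.40. No paired analysis was possible in co-culture because those columns carry no replicate number. The p-values between mCh and GFP cells therefore ignore that both were sorted from shared co-cultures.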
